A study of Mus musculus with 2 samples.

Results

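Stromal cells of the bone marrow from C57BL/6 mice were compared between day 1 and day 3 after total body irradiation, gene by gene, by their transcript levels. For each gene, the log ratio on the day 3 array minus the log ratio on the day 1 array was taken, after the probes of a gene had been averaged by their platform symbol and the median over genes of each array had been subtracted. A ratio on both arrays was given for 9800 of 16390 named genes, and these 9800 genes are the members described here. Ratios were given for 10434 genes at day 1 and 11404 at day 3.

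Each array was a two-colour array that compared irradiated with unirradiated RNA. The unirradiated stromal cells were labelled with Cy5, and the stromal cells taken 1 day or 3 days after a dose of 9.5 Gy were labelled with Cy3, on separate arrays. No genetic change, other treatment, age or sex was given in the sources used here. The series names 6 mice, with no word on their division among the groups or on pooling. The method by which stroma was freed of other marrow cells was not given either. There was 1 array per time point and no dye swap, so no value below has a replicate error, no difference was tested, and array and time point cannot be told apart. Where a gene had several probes, their differences varied with a pooled SD of 0.73 (log2, 77 genes), a spread that leaves out mice, preparations and hybridisations. Both arrays used unirradiated RNA; if that was the same extract, it cancels in the difference between days, but the labels do not say so. Ratios carry no level, so the share of stroma in a sample could not be read from them. Of genes named on the array, 24 of 31 mesenchymal, 32 of 37 endothelial and 14 of 26 pan-leukocyte genes had both ratios. A further 8 pan-leukocyte and 2 mesenchymal genes had a ratio at day 1 alone, and 3 mesenchymal and 5 endothelial genes at day 3 alone. In bulk RNA, fewer cells of a type and less RNA per cell cannot be told apart.

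Marrow stroma is the supporting tissue of blood formation. It holds endothelial cells of sinusoids and arterioles, reticular and other mesenchymal cells that secrete chemokines and growth factors for stem cells, adipocytes, and bone-lining cells. Total body irradiation stops the division of blood-forming cells, and neutrophils, monocytes and red-cell precursors, which live for a short time without renewal, are lost from the marrow. The vessels dilate and leak and are then rebuilt, and fat cells expand into the emptied space.

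The numerator of the ratio is not named in the labels. A positive ratio was taken to mean more irradiated than unirradiated RNA, a likely direction only. Its basis is the list of p53 targets, a response that radiation is known to set off: of 32 with both ratios, 19 were at least 2-fold positive at day 1 and 16 at day 3, and none was 2-fold negative on either array. Over all genes with both ratios, 17.2% were at least 2-fold positive at day 1 and 6.1% at day 3. If the ratio ran the other way, "higher" and "lower" would trade places throughout. The p53 list is therefore no independent evidence of its own direction.

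The shift between the days was lopsided: the large differences were almost all toward lower values at day 3. Differences of at least 1 on the log2 scale, or 2-fold, are called higher or lower below. By this rule 1182 of 9800 genes were higher at day 3 (12.1%) and 1648 were lower (16.8%); these 2 shares are the background for each count of a gene list below. At 4-fold the counts were 109 higher and 618 lower, and at 8-fold 2 higher and 297 lower. At 16-fold there were 165 lower genes and no higher ones, and 7 genes were lower by 256-fold or more. The differences ran from -10.96 to 3.13 with a median of -0.04, and the lowest and the highest 5% lay beyond -2.30 and 1.40. Higher genes made up 41.8% of those past the rule; setting the density peak of each array to 0 in place of its median moved every difference by -0.192 and gave 801 higher and 2034 lower genes, or 28.3% higher.

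The genes lower at day 3 were mostly genes that had been high at day 1. Of the 1648, 1191 (72.3%) were at least 2-fold above unirradiated at day 1, against 17.2% of all 9800 genes, and 289 (17.5%) were at least 2-fold below unirradiated at day 3, against 6.77% of all. Their median log2 ratio was 1.60 at day 1 and -0.13 at day 3. Of the 297 genes lower by 8-fold or more, 273 (91.9%) had been at least 2-fold above unirradiated at day 1. The 1182 higher genes were mirrored less sharply: 545 (46.1%) had been at least 2-fold below unirradiated at day 1, against 11.7% of all genes, and 235 (19.9%) were at least 2-fold above it at day 3, against 6.1% of all. Their median was -0.94 at day 1 and 0.43 at day 3. These shares describe the same values that enter the difference and add no separate evidence. The spread of the ratios was wider at day 1 (SD over genes 1.23) than at day 3 (SD 0.73).

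**Figure D1:**
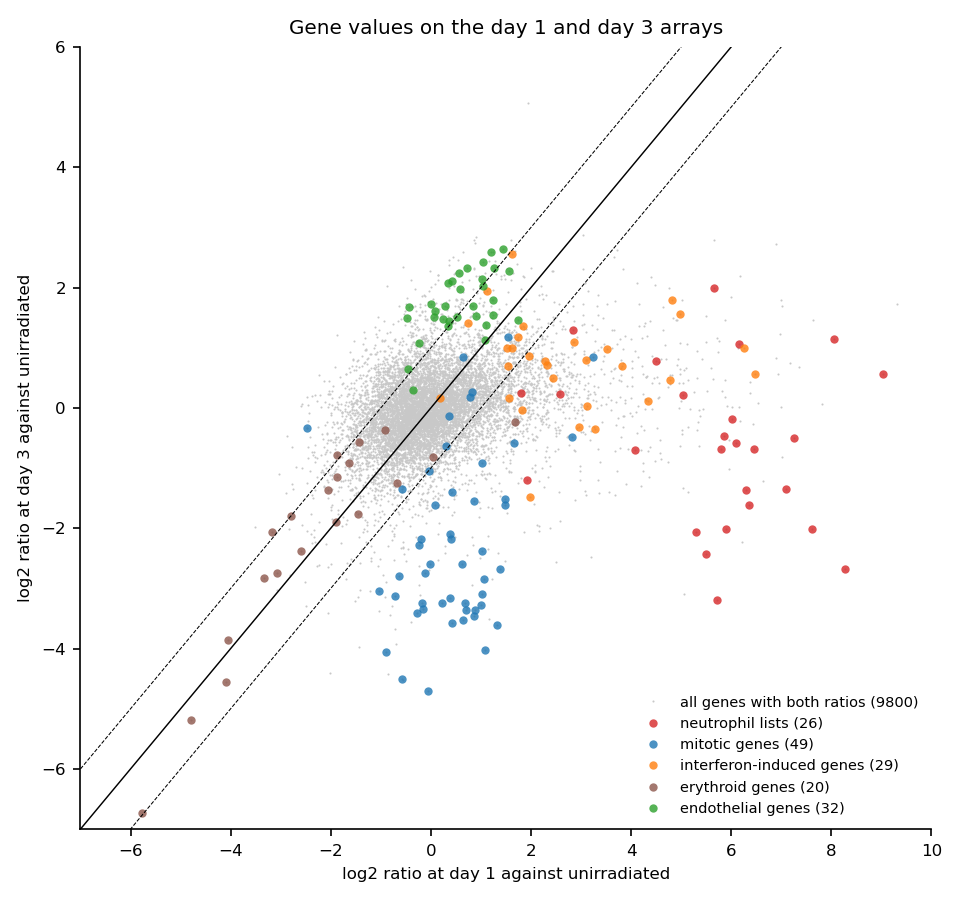
Each point is 1 of 9800 genes, with its log2 ratio against unirradiated at day 1 (horizontal axis) and at day 3 (vertical axis); the solid line marks equal values and the dashed lines a 2-fold difference. Genes of the 3 neutrophil lists (26 points) lie mostly far to the right and near or below 0 on the vertical axis, mitotic genes (49) mostly below the line, endothelial genes (32) mostly above it, and erythroid genes (20) along it.

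Neutrophil genes held the lowest differences. All 4 azurophil granule genes, all 9 specific granule genes and all 13 mature neutrophil genes with both ratios were at least 2-fold lower at day 3, against 16.8% of all genes, with median differences of -3.58, -7.75 and -6.91. Chil3, a chitinase-like lectin of myeloid cells, had a log2 ratio of 8.28 at day 1 and -2.67 at day 3, a difference of -10.96 and the lowest of all 9800 genes. Values given as going from one number to another are log2 ratios against unirradiated at day 1 and at day 3. Camp, the precursor of the antimicrobial peptide cathelicidin, went from 5.71 to -3.19, and the iron-binding granule protein Ltf (lactoferrin) from 5.89 to -2.02. These genes were above unirradiated at day 1 and below it at day 3.

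The calcium-binding pair S100a8 and S100a9, which form the abundant cytosolic protein calprotectin, ran together. S100a8 stood at 7.61 at day 1 and -2.01 at day 3, a difference of -9.61, and S100a9 at 6.30 and -1.36, a difference of -7.66. Among the proteases, the azurophil enzyme Ctsg (cathepsin G) went from 6.36 to -1.62, while the collagenase Mmp8 went from 7.25 to -0.50 and so ended within 2-fold of unirradiated. Mmp9, the gelatinase of neutrophil granules, was the neutrophil gene that kept the highest ratio at day 3, 1.99 after 5.66 at day 1. The acute-phase gene Hp (haptoglobin), also a granule protein, had the smallest difference of the specific granule list, -1.54, with 2.85 at day 1 and 1.30 at day 3. At day 3, 5 of 9 specific granule genes and 4 of 13 mature neutrophil genes were at least 2-fold below unirradiated. Over all genes the share was 6.77%. The specific granule list holds the lineage factor Cebpe, which with Mpo, Csf3r and other neutrophil genes had a ratio at day 1 only and is given below.

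Factors of the C/EBP family act at promoters of granule genes during neutrophil maturation. The letters TTGCNNAA, a common core of their sites, were searched on either strand in the RefSeq promoter window from 250 bases before to 50 bases after the first listed start (GRCm38.p6), which was held for 7887 of the 9800 genes. They occurred in 4 of 8 specific granule promoters and 4 of 10 mature neutrophil promoters, but in 0 of 3 azurophil granule promoters. The share was 14.8% for genes lower by 8-fold or more, 8.42% for measured genes and 10.8% for all 27025 promoters of the table. Ngp (neutrophilic granule protein), whose difference was -7.93 (5.50 at day 1, -2.43 at day 3), is shown because its window at chr9:110419558-110419857 (plus strand) holds 2 matches, in capitals:
Ngp: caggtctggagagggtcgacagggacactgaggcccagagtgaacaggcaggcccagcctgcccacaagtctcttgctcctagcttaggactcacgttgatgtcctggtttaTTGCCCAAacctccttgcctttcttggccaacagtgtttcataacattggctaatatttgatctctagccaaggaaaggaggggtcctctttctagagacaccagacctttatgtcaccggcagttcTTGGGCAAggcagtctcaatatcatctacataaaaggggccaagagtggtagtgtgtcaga
A match is a description of the letters and not a binding site. Promoters of genes lower by 8-fold or more held a median of 7 CpG per window, against 20 over measured genes and 7 over all promoters.

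Genes shared by all leukocytes were lower at day 3 as well. All 14 pan-leukocyte genes with both ratios passed 2-fold downward, with a median difference of -5.51, from 5.03 at day 1 (range 2.59 to 6.99) to -0.33 at day 3 (range -1.88 to 0.93). The 2 ranges do not overlap, but they run over genes of a list and not over replicates. Over all 9800 genes, 16.8% were lower. Lcp1, the actin-bundling plastin of leukocytes, went from 6.99 to 0.01, and the actin regulator Coro1a from 5.13 to -1.40. The smallest difference of the list was that of Tyrobp, the adaptor of activating myeloid receptors, at -4.20. Their part in the differences of the immune gene groups described below, which did not all run the same way, was not tested.

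The phagocyte oxidase and Fc receptor genes followed: 7 of 7 were lower, with a median difference of -5.52. Ncf1, the cytosolic organiser of the oxidase, went from 6.21 at day 1 to -2.22 at day 3, and Rac2, the GTPase that switches it on, from 5.06 to -3.09. Fcgr2b, the inhibitory Fc receptor, which liver and marrow sinusoids also make, ended highest, at 2.04 after 4.48. Of 5 mast cell, basophil and eosinophil genes, 4 were lower, led by the eosinophil major basic protein gene Prg2 (3.21 at day 1, -2.47 at day 3), while the mast cell protease Mcpt4 differed by only 0.14.

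Monocyte and macrophage genes were divided. Of 9 inflammatory monocyte genes, 7 were lower and none higher, with a median difference of -2.36. Fcnb, a ficolin of myeloid cells, went from 6.18 to -0.22, and the endotoxin co-receptor Cd14 from 5.71 to 1.17. Of 15 resident macrophage genes, 8 were lower and none higher, with a median difference of -1.13. The 3 chains of complement C1q, made by tissue macrophages, had the lowest differences: C1qa went from 4.69 to 0.81, C1qb from 4.83 to 1.49 and C1qc from 4.02 to 0.67. Mrc1, the mannose receptor, differed by -0.14, Csf1r, the receptor for macrophage colony-stimulating factor, by -0.97, and the receptors for dying cells Axl and Mertk by 0.64 and 0.97. None of these 4 passed 2-fold.

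Few lymphoid genes had ratios on both arrays. Cd79b, a signalling chain of the B-cell receptor, went from 0.82 to -2.95, and Mzb1, a chaperone of antibody-secreting cells, from 1.81 to -1.16. Gzmb, a granzyme of cytotoxic cells, went from 2.31 to -0.09. In all, 2 of 5 B lineage, 3 of 5 plasma cell and 2 of 4 T and NK cell genes were lower. Each of these lists also had 1 higher member: Ebf1, which mesenchymal reticular cells make as well (-0.83 to 0.61), Sdc1, also an epithelial and stromal proteoglycan (-0.73 to 0.48), and the T-cell co-receptor Cd28 (-0.81 to 0.24).

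Genes given a ratio at day 1 alone fall outside the difference, and they were mostly high ones. Of 634 such genes, 366 (57.7%) were at least 2-fold above unirradiated and 11 below it, with a median log2 ratio of 1.19. They include 8 further pan-leukocyte genes and 6 further mature neutrophil genes, all of them at least 2-fold above unirradiated. Csf3r, through which granulocyte colony-stimulating factor acts, stood at 7.97, the granule maturation factor Cebpe at 7.18 and Mpo, the myeloperoxidase of azurophil granules, at 5.30. Another 17 mitotic genes had a ratio at day 1 alone, but only 7 of them were at least 2-fold above unirradiated. Their median was 0.79. No pan-leukocyte gene and no gene of the 3 neutrophil lists was given a ratio at day 3 alone. Why entries are empty was not stated, so these genes have no difference.

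The 1604 genes with a ratio at day 3 alone were centred near unirradiated, with a median of 0.19, 240 at least 2-fold above it and 118 below it. Plin1, the coat protein of large fat droplets, stood at 3.27 at day 3. Wnt pathway genes were the list with the most such members, 15. Kitl, the stem cell factor of marrow stroma, had no ratio on either array. Because these lists lose members unequally between the days, the counts below cover only measured members.

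**Figure D2:**
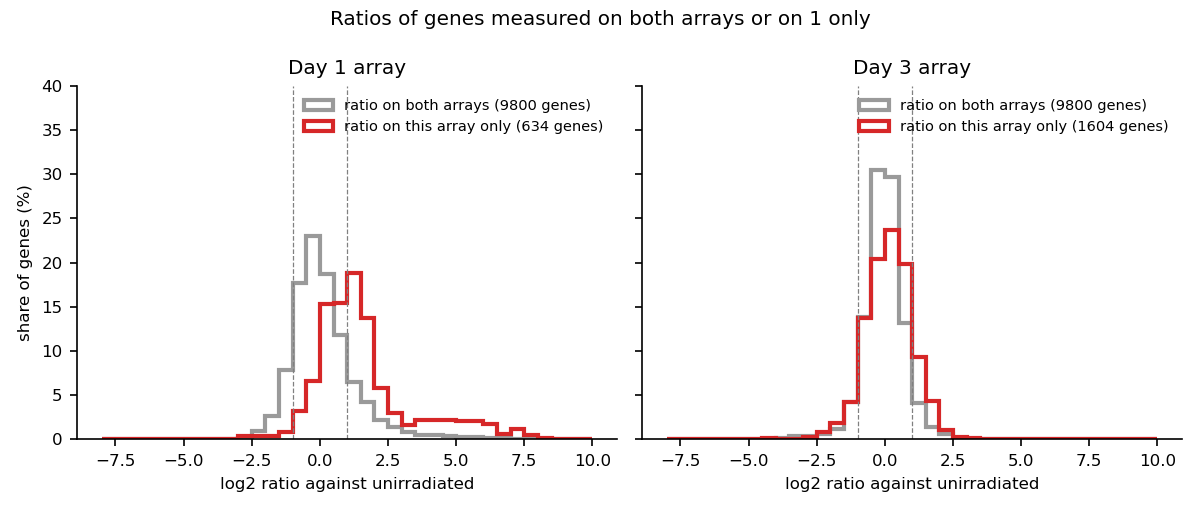
Share of genes (%) in bins of the log2 ratio against unirradiated, on the day 1 array (left) and the day 3 array (right), for the 9800 genes with a ratio on both arrays (grey) and the genes with a ratio on that array alone (red, 634 at day 1 and 1604 at day 3); dashed lines mark 2-fold. The red distribution at day 1 has a long tail to the right and a median of 1.19, while at day 3 its median is 0.19.

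Secreted signals of inflammation were lower at day 3 in part. Of 14 inflammatory cytokine genes, 8 were lower and none higher, with a median difference of -1.15. The pyrogenic cytokine gene Il1b went from 7.36 at day 1 to 0.68 at day 3, Osm (oncostatin M) from 4.24 to -1.04, and Tnf ended at 0.12, a difference of -4.89. All 3 were far above unirradiated at day 1 and within about 2-fold of it at day 3. Il6, by contrast, stood at 1.36 and 1.42, a difference of 0.06. Il33, an alarmin of stromal nuclei, differed by 0.85.

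The chemokines went separate ways by member. Cxcl2, a neutrophil attractant, went from 9.32 to 1.73, a difference of -7.59. Cxcl1, which acts on the same receptor, stood at -0.01 and 0.87. Cxcl13, the attractant of B cells to follicles, had the highest difference of all 9800 genes, 3.13, and was already high at day 1 (1.94 and then 5.07). Cxcl12, which retains stem cells in the marrow, went from -0.19 to 0.74. Within the list, 1 of 10 genes was higher and 1 lower, shares below the 12.1% and 16.8% of all genes, and 8 stayed within 2-fold. The interferon-induced Cxcl9, Cxcl10 and Cxcl11 differed by 0.57, 0.26 and 0.34, Cxcl14 by 0.75, Cxcl3 by 0.14 and Cxcl16 by 0.02.

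Of 10 CC chemokines, 5 were lower and 1 higher. Ccl3, made by activated myeloid cells, went from 5.76 to 1.11, Ccl5 from 3.09 to -0.44 and Ccl9 from 4.13 to 0.84. The dendritic cell chemokines Ccl22 and Ccl17 differed by -2.63 and -1.02. The monocyte attractants Ccl2 and Ccl7 did not pass 2-fold, at -0.83 and -0.87, nor did Ccl25 (-0.74) and Ccl8 (0.02). Ccl11 (eotaxin), a stromal product, was the higher member, from -1.26 to -0.24. Ccl4, Ccl6 and Ccl12 had a ratio at day 1 alone, at 5.56, 5.79 and 4.66.

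Of 10 chemokine receptors, 2 were lower and none higher, a share of lower genes near the 16.8% over all genes. Ccr1, a receptor of myeloid cells for Ccl3 and Ccl5, went from 7.64 to 1.47 and Cxcr4, the receptor for Cxcl12, from 3.42 to -0.23. The scavenging receptors Ackr1 and Ackr4, made by vessels and stroma, differed by 0.93 and 0.67. Of 15 Toll-like receptor and inflammasome genes, 11 were lower, among them Tlr6 (4.24 to 0.24) and Tlr2 (4.56 to 0.77). Tlr3, the receptor for double-stranded RNA, was the only higher member, from -0.34 to 1.42. In leukotriene and prostaglandin synthesis, 3 of 9 genes were lower and none higher: Alox5ap, which presents arachidonic acid to 5-lipoxygenase (7.82 to 0.07), the inducible cyclooxygenase Ptgs2 (5.05 to 0.63) and the leukotriene hydrolase Lta4h (3.26 to 0.26). The prostacyclin synthase gene Ptgis differed by 0.90.

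Interferon-induced genes were lower at day 3 in 20 of 29 cases, none higher, with a median difference of -1.87 against -0.04 over all genes. At day 1, 27 of 29 were at least 2-fold above unirradiated, against 17.2% of all genes. At day 3, 8 of 29 still were, against 6.1% of all genes. The double-stranded RNA sensors Oas2 and Oas1a went from 6.48 to 0.57 and from 6.25 to 1.00. Rsad2 (viperin), an antiviral enzyme, went from 4.77 to 0.46. The list was not uniform: the GTPase gene Iigp1 differed by 0.68, the kinase gene Eif2ak2 by 0.82 and Ifi44 by 0.93, and Ifi44 kept a ratio of 2.56 at day 3. Of 10 class I antigen presentation genes, 4 were lower, including the immunoproteasome subunits Psmb8 (-1.69) and Psmb9 (-1.78) and the peptide transporter Tap1 (-1.73). All 3 class II genes were lower, with H2-Aa going from 4.57 to -0.75 and the invariant chain Cd74 from 4.55 to 0.18. Complement genes ran both ways, 5 of 12 higher and 3 lower: the myeloid factor Cfp (properdin) went from 4.96 to 0.42, whereas C1s1, made by stromal cells and liver, went from -1.09 to 0.39 and Clu (clusterin), a soluble inhibitor, from -0.25 to 1.29.

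Type I interferon drives its target genes through a promoter element whose core is the letters GAAA repeated after any 2 bases. It was found, on either strand, in 11 of 19 promoters of the interferon list (57.9%), in 2.98% of the promoters of measured genes and in 3.49% of all promoters of the table. Those of Oas1a (chr5:120907476-120907775, minus strand) and Rsad2 (chr12:26456403-26456702, minus strand) are printed because both genes were among the lowest of the list and each window holds the element, in capitals (in Oas1a 2 overlapping matches):
Oas1a: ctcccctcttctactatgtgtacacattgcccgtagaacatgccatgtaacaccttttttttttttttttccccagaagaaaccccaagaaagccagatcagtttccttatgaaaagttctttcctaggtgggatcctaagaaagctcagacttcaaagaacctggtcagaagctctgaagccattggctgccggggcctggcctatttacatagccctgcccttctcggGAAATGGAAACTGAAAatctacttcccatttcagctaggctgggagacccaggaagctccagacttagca
Rsad2: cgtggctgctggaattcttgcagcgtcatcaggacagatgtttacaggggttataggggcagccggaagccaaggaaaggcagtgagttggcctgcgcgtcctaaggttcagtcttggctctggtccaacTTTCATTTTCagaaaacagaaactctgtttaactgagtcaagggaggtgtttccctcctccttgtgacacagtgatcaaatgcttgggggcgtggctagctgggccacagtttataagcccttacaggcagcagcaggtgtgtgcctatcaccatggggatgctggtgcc
Within the list, the 11 genes with the element had a median difference of -1.50, with 7 of them lower at day 3, and the 8 without it a median of -3.20, with 6 lower.

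Genes of cell division were lower at day 3, and here the day 3 values lay below unirradiated. Of 49 mitotic genes with both ratios, 41 were lower and 1 was higher, with a median difference of 8.01-fold downward, the median ratio going from 0.43 at day 1 to -2.60 at day 3. At least 2-fold below unirradiated were 2 of them at day 1 and 38 at day 3, against 11.7% and 6.77% of all genes. Mki67, the proliferation antigen of chromosome surfaces, went from 1.32 to -3.61, and Top2a, the topoisomerase of dividing cells, from 0.68 to -3.24. The spindle protein gene Nusap1 had the lowest difference of the list, -5.13 (1.09 to -4.03). Birc5 (survivin) went from -0.05 to -4.70 and the cyclin gene Ccna2 from -0.57 to -4.50. Incenp, a partner of survivin in the chromosomal passenger complex, ran the other way, from -2.48 to -0.34. Like most genes here, it rests on 1 probe: 179 of the 9800 genes had several.

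Replication genes had a smaller difference and started lower. Of 50, 29 were lower and none higher, with a median difference of -1.28, from -0.72 to -1.97. The 6 subunits of the MCM helicase, which opens DNA at origins, were not alike: Mcm5 went from -0.85 to -4.42, a difference of -3.57, Mcm2 differed by -2.23, Mcm3 by -1.75 and Mcm7 by -1.26, while Mcm4 (-0.59) and Mcm6 (-0.64) did not pass 2-fold. The epigenetic regulator Uhrf1 went from -0.39 to -3.56. Pcna, the sliding clamp of polymerases that p53 also induces, differed by -0.47. Of 10 homologous recombination and Fanconi genes, 4 were lower, led by Rad51ap1 (-0.70 to -3.92). At day 3, 7 stood at least 2-fold below unirradiated, and none did at day 1. Over all genes the shares were 6.77% at day 3 and 11.7% at day 1.

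Histone genes that are transcribed in S phase were lower in 6 of 12 cases. H2ac10 and H2ac15 both differed by -1.70, H2ac18 by -1.58, the linker histone H1f4 by -1.15 and H4c1 by -1.08. H2ac4 differed by -3.97, or by -2.73 when only its probe with both ratios was used. H2bc12, H2bc9, H2bc22, H2bc14, H1f2 and H3c2 lay between -0.65 and 0.78. Their sequences are near-identical, so a probe may read several of them. Among G1 to S control genes, 6 of 22 were lower and 4 higher: the cyclin Ccne2 went from -0.21 to -3.11 and the phosphatase gene Cdkn3 from 2.13 to -1.95, while the retinoblastoma gene Rb1 went from -0.32 to 0.91 and the repressor E2f5 from -1.22 to 0.09.

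Mitotic promoters often carry the cell cycle homology region, or CHR, with the letters TTTGAA, through which they are repressed outside division. It was found on either strand in 27 of 42 mitotic promoters (64.3%), in 12% of those of measured genes and in 18.1% of all. The CCAAT box, its usual neighbour, was found in 69% of mitotic promoters and 38.4% of measured ones. Replication genes are driven by E2F factors; the letters TTTNNCGC were found in 13 of 40 replication promoters (32.5%), 8.6% of measured ones and 5.27% of all. The windows of Mki67 (chr7:135716330-135716629, minus strand) and Top2a (chr11:99024140-99024439, minus strand), with 2 CHR matches each in capitals, and that of Mcm5 (chr8:75109259-75109558, plus strand), with 2 overlapping E2F matches, 1 on each strand, in capitals, are shown as the promoters of the division genes named above:
Mki67: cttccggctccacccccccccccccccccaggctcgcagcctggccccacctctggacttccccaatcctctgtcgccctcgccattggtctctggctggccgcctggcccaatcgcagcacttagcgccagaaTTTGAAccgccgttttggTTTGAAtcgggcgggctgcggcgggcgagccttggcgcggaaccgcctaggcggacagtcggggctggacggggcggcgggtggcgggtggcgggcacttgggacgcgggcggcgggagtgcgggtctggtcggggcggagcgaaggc
Top2a: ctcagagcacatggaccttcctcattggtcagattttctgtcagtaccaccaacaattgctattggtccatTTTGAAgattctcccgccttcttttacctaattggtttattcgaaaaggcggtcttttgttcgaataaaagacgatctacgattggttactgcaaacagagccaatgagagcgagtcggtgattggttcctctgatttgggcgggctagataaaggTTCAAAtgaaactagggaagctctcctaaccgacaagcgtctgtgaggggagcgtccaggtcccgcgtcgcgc
Mcm5: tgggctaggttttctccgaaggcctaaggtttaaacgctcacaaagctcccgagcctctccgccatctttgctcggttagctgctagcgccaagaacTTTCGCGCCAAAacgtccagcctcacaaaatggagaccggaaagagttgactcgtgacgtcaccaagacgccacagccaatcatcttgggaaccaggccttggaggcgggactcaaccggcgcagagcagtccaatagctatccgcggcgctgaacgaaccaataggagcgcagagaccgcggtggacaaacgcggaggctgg
The 27 mitotic genes with the CHR letters had a median difference of -3.19, with 24 lower at day 3, and the 15 without them a median of -2.59, with 12 lower.

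**Figure D3:**
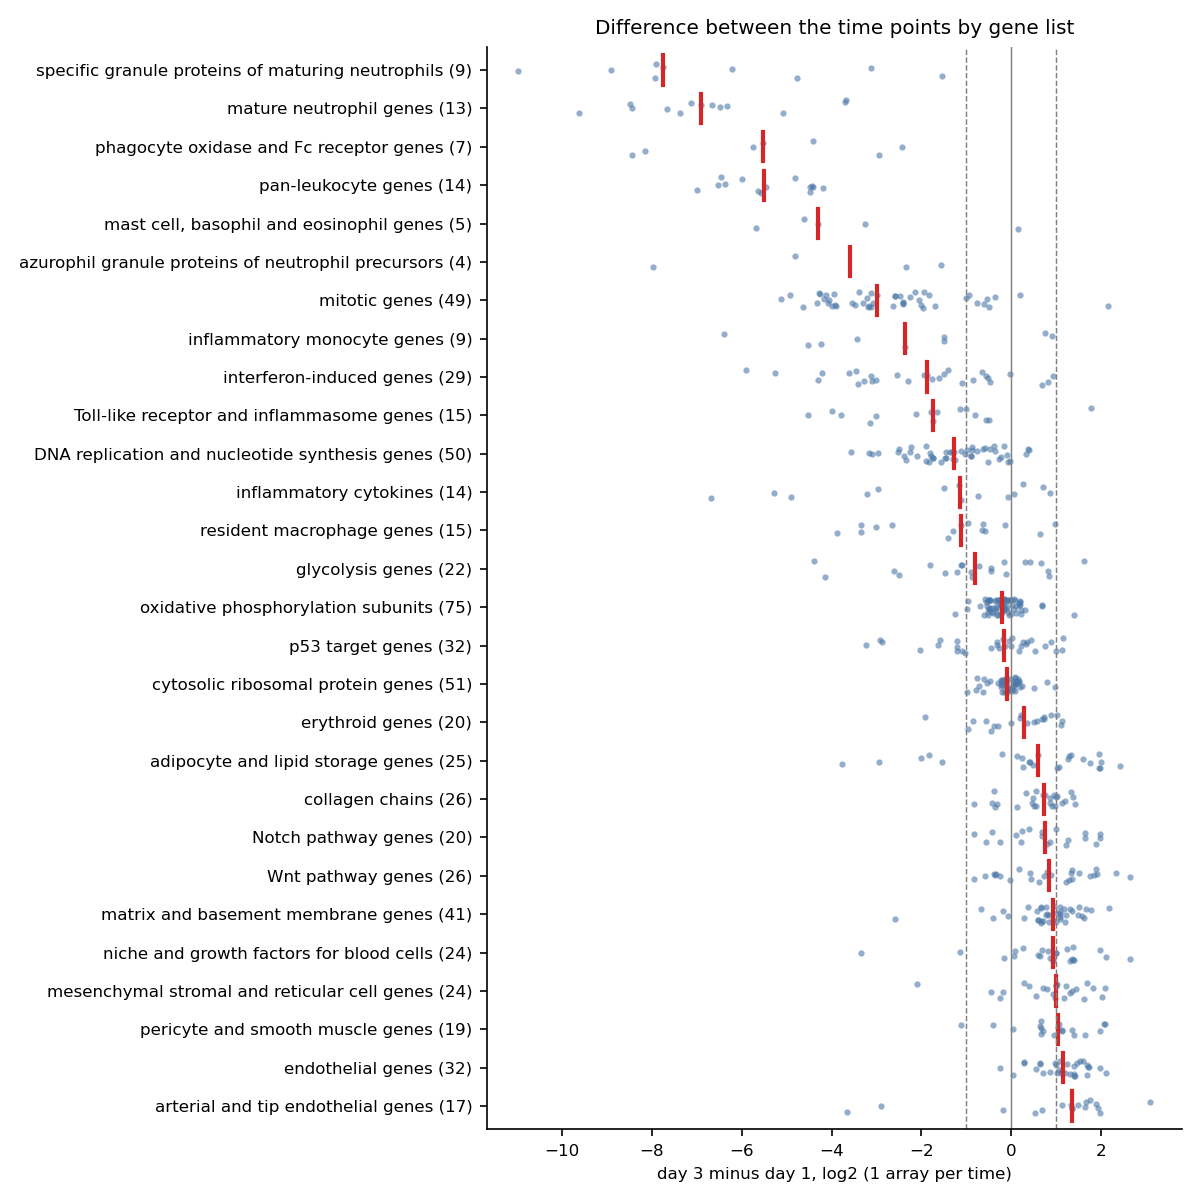
Difference between day 3 and day 1 (log2, horizontal axis) of every measured member of 28 gene lists, 1 point per gene, with the number of members in brackets and a red bar at the list's median; the solid line marks 0 and the dashed lines 2-fold. Medians run from -7.75 for specific granule genes to 1.35 for arterial and tip endothelial genes, and cytosolic ribosomal protein genes lie near 0 at -0.09.

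Targets of p53 had positive median ratios on both days, and a minority were lower at day 3. Of 32, 11 were lower and 2 higher, with median ratios of 1.45 at day 1 and 0.90 at day 3. The growth arrest gene Gadd45a went from 4.02 to 0.78, the caspase activator Apaf1 from 2.56 to -0.36, and Pmaip1 (Noxa), a killer protein of the Bcl2 family, from 5.66 to 2.79. The cell cycle inhibitor Cdkn1a (p21) was nearly level, at 2.23 and 1.90. Mdm2, the ubiquitin ligase that limits p53, went from 2.26 to 1.06 and Ccng1 from 3.15 to 1.94. Above day 1 at day 3 were the stress sensor Sesn1 (-0.72 to 0.41) and the kinase gene Ak1 (0.02 to 1.17).

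Genes of the Bcl2 family, which decides on cell death at the mitochondrion, were split in 4 lower and 2 higher of 12. Besides Pmaip1, the death activator Bid went from 1.68 to -0.29, and Mcl1, a short-lived survival protein of myeloid cells, from 2.50 to 0.88. Bcl2l1 (Bcl-xL), another survival protein, went from -0.29 to 0.92. Bcl2 itself differed by 1.22, but by 0.06 when only its probe with both ratios was used, so that value rests on different probes on the 2 days.

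Erythroid genes were low on both arrays and differed little between them. Of 20, 16 were at least 2-fold below unirradiated at day 1 and 14 at day 3, against 11.7% and 6.77% of all genes. Between the days 3 were higher and 1 lower at day 3, with a median difference of 0.27. Car2, a carbonic anhydrase that red cells and osteoclasts share, stood at -5.77 and -6.73, and Gata1, the master transcription factor of the lineage, at -4.06 and -3.85. The transferrin receptor genes Tfrc and Tfr2 stood at -0.68 and -1.25, and at -3.18 and -2.06. The mitochondrial iron importer Slc25a37 was the lower member, 1.69 at day 1 and -0.24 at day 3. Of 7 megakaryocyte genes, 3 were lower and none higher: the platelet chemokine Pf4 (0.90 to -1.39), the integrin gene Itga2b (1.03 to -1.04) and the podoplanin receptor Clec1b (1.61 to -0.68). Of 9 stem and progenitor genes, 2 were lower and none higher, again near the 16.8% of all genes: Gfi1 (5.12 to 1.06), which also acts in neutrophil precursors, and Lmo2 (0.30 to -0.90). Hoxa9 and Hoxa10 differed by 0.89 and 0.88.

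**Figure D4:**
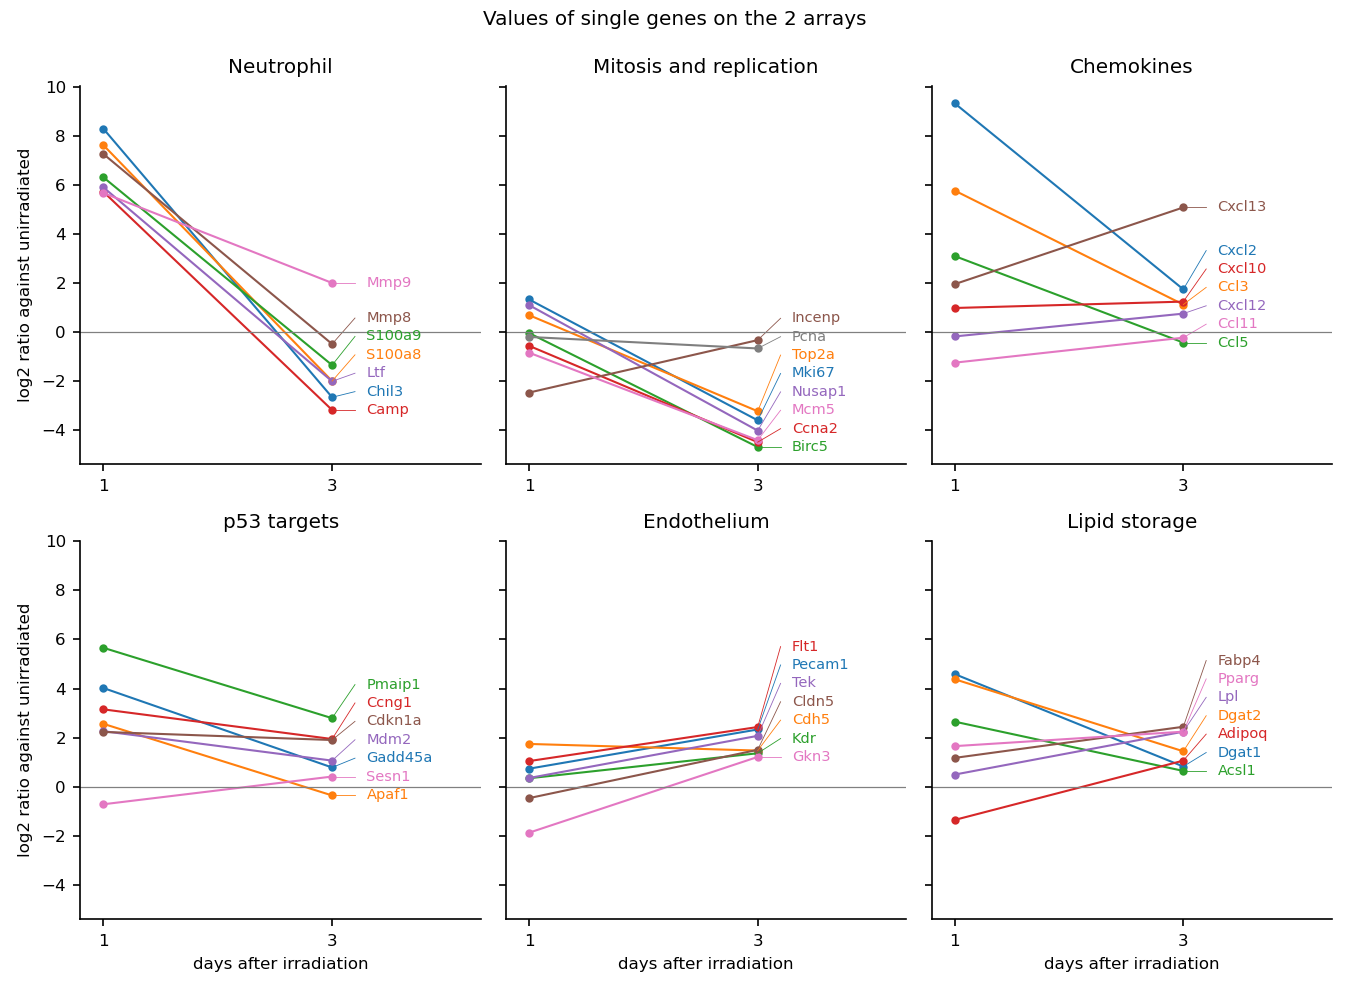
Log2 ratio against unirradiated (vertical axis) at 1 and 3 days after irradiation (horizontal axis) for single genes in 6 groups, 1 line per gene, each end being 1 array. Neutrophil lines all run down, with Chil3 from 8.28 to -2.67; among chemokines Cxcl2 runs down from 9.32 while Cxcl13 runs up to 5.07; endothelial lines mostly run up, and in lipid storage the esterification genes Dgat1 and Dgat2 run down while Adipoq runs up.

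Endothelial genes were higher at day 3 as a group. Of 32, 21 were higher (against 12.1% of all genes) and none lower, with a median difference of 1.15, from 0.58 at day 1 to 1.68 at day 3. At least 2-fold above unirradiated were 12 at day 1 and 30 at day 3, against 17.2% and 6.1% of all genes. Pecam1, the adhesion molecule of endothelial contacts, went from 0.73 to 2.33, and Cldn5, a tight junction protein, from -0.47 to 1.50. The adherens junction cadherin Cdh5 was already at 1.74 at day 1 and stood at 1.47 at day 3, the lowest difference of the list. Myct1 had the highest, 2.11 (-0.43 to 1.68). Between the same arrays the pan-leukocyte median differed by -5.51, and its part in the higher values of endothelial and other stromal genes was not tested.

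The receptors of vessel growth shared the direction, and their ligands did so in part. Of 13 VEGF and angiopoietin genes, 8 were higher and none lower. The VEGF receptors Kdr and Flt1 went from 0.34 to 1.36 and from 1.04 to 2.43, and the angiopoietin receptor Tek from 0.35 to 2.07. Among ligands, Vegfc went from -0.40 to 1.18 and Vegfd from -0.70 to 0.80, whereas Vegfa, high at day 1, stood at 1.57 and 1.26 and Angpt1 at 0.96 and 1.04. Arterial and tip cell genes had a median difference of 1.35, 12 of 17 higher and 2 lower. Gkn3, a marker of arterial endothelium in mouse, went from -1.88 to 1.21, the Notch ligand Jag1 from 0.14 to 2.13 and the semaphorin Sema3g from 0.86 to 2.80. The 2 lower members of this list were Cxcr4, given above, and the kinase Bmx (4.26 to 1.37), both of which leukocytes also make. Of 11 sinusoidal and venous genes, 4 were higher and 1 lower, with Ephb4, the ephrin receptor of veins, from -1.69 to 0.56, the fatty acid receptor Cd36 from 0.65 to 2.59 and the selectin Sele from 0.44 to 1.53. Lyve1 and Stab1, endocytic receptors of sinusoids, differed by -0.51 and -0.13. The lower member was Fcgr2b, given above, at -2.44.

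Notch genes, which set arterial fate, were higher in 7 of 20 cases and none was lower. The target repressors Hes1 and Hey1 went from -0.11 to 1.86 and from -0.94 to 0.95. The receptor Notch1 stood at 2.57 and 1.73, the lowest difference of the list. Among guidance genes, the ephrin Efnb2, partner of Ephb4 on arteries, went from -0.21 to 1.54 and Sema3e from -0.87 to 1.25, while the immune semaphorins Sema4a and Sema4d went from 3.12 to 0.16 and from 2.27 to 0.68. In all, 10 of 38 guidance genes were higher and 3 lower.

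Mesenchymal stromal genes were higher at day 3 in 12 of 24 cases, against 12.1% of all genes, while 11 stayed within 2-fold and 1 was lower. Their median started, unlike that of endothelial genes, below unirradiated, with ratios of -0.64 at day 1 and 0.35 at day 3. Lepr, the leptin receptor that marks reticular cells around sinusoids, went from -0.82 to 1.27, the transcription factor Meox2 from -1.08 to 0.93 and the growth factor-binding protein Igfbp4 from -0.11 to 1.71. Pi16, a marker of adventitial fibroblasts, was the lower member (1.68 to -0.43). Pericyte and smooth muscle genes were higher in 10 of 19 cases, again against 12.1% of all genes, with the smooth muscle myosin Myh11 from 0.44 to 2.51 and the potassium channel Kcnj8 from -0.54 to 1.56. The lower member was Synpo2, an actin-binding protein of muscle, from 1.17 to 0.04.

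Factors that stroma supplies to blood cells were higher in 9 of 24 cases and lower in 2. Ptn (pleiotrophin), a heparin-binding factor of stem cell niches, went from -2.60 to 0.03, so its day 3 value was level with unirradiated. Il34, another ligand of the Csf1 receptor, went from -1.21 to 0.90, and Il7, needed by early lymphocytes, from 0.01 to 1.41. The adhesion molecule Vcam1 went from -0.08 to 0.92. Tnfsf13b (BAFF), a B-cell survival factor that myeloid cells secrete, went the other way, from 4.64 to 1.30, as did Il15 (1.92 to 0.78). In the IGF system 6 of 12 genes were higher and 1 lower, with the protease Pappa, which frees IGF from its binding proteins, from -2.03 to 0.44. The receptor Igf1r was the lower member (2.02 to 0.66).

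Osteoblast lineage and cartilage genes stood, by their medians, below unirradiated at day 1 and less so at day 3, while osteoclast genes did not. Of 20 osteoblast lineage genes, 11 were at least 2-fold below unirradiated at day 1 and 7 at day 3, and 7 were higher and 1 lower at day 3 than at day 1. Postn (periostin), a matrix protein of the bone surface, went from -1.13 to 0.99, and the proteoglycan gene Ogn from -0.38 to 1.20. Col1a1, the main collagen of bone, stayed low, at -1.14 and -1.50, and the osteoblast gene Ifitm5, the lower member, went from -1.06 to -2.63. Of 14 chondrocyte genes, 12 were at least 2-fold below unirradiated at day 1, against 11.7% of all genes, and 6 at day 3, against 6.77%. Between the days 3 of them were higher and 1 lower, the matrilin Matn1 (-1.41 to -2.57), with Sox9, the factor that specifies cartilage, going from -1.53 to -0.26. Of 9 osteoclast genes, 1 was higher, the collagenolytic protease Ctsk (-0.57 to 0.51), and none was lower. The median ratio of the osteoclast list was above unirradiated on both days, 0.66 at day 1 and 0.24 at day 3, with a median difference of -0.50.

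Matrix genes were higher in 18 of 41 cases and lower in 1, and collagen chains in 6 and 0 of 26. The laminin chain Lama4, found in vessel basement membranes, went from -1.53 to 0.63, and the thrombospondin Thbs2 from -1.27 to 0.38. Among collagens the fibrillar chain Col27a1 (-2.32 to -0.90) and Col12a1 (-0.65 to 0.72) had the highest differences, Col3a1 differed by 1.20, and the basement membrane chain Col4a1 had the lowest, -0.84. At day 1, 17 of 26 collagen chains were at least 2-fold below unirradiated, against 11.7% of all genes. At day 3, 6 were, against 6.77% of all genes. Of 36 metalloproteinases and inhibitors, 11 were higher, led by the stromelysin Mmp3 (-2.05 to 0.01), and 5 lower, led by the neutrophil enzymes given above.

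Fat cell genes were more often higher than lower at day 3. Of 25 adipocyte and lipid storage genes, 12 were higher, against 12.1% of all genes. Another 5 were lower, a share not far from the 16.8% of all genes. The hormone gene Adipoq (adiponectin) went from -1.36 to 1.06, the glycerol channel Aqp7 from -0.31 to 1.69 and Lpl, the lipase that feeds fat cells, from 0.49 to 2.24. The lower set holds genes of triglyceride assembly that many cells use: the acyltransferases Dgat1 and Dgat2 went from 4.59 to 0.82 and from 4.38 to 1.44, and the acyl-CoA synthetase Acsl1 from 2.65 to 0.64. All 3 were at least 4-fold above unirradiated at day 1. Of 12 fatty acid synthesis genes, 2 were higher and none lower, not far from the 12.1% of all genes higher: the desaturase Scd1 (-1.34 to -0.28) and the elongase Elovl6 (-1.52 to -0.38). Of 17 cholesterol genes, 2 were higher and 1 lower, shares near or below the 12.1% and 16.8% of all genes, with the mevalonate kinase gene Mvk from -1.56 to 0.04 and the exporter Abcg1 from 3.08 to 2.07.

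Of 26 Wnt genes, 12 were higher, against 12.1% of all genes, and none lower: the ligand Wnt4 went from -2.58 to 0.07, the feedback inhibitor Nkd1 from -2.04 to 0.28 and the receptor Fzd6 from -0.52 to 1.38. Lrp5, a co-receptor, had the lowest difference, -0.84. Of 30 TGF-beta and BMP genes, 7 were higher, against the same 12.1%, and 22 stayed within 2-fold. Higher were, among others, the co-receptor Tgfbr3 (-0.12 to 1.62), the inhibitory Smad6 (-1.05 to 0.54) and the ligand Bmp4 (-0.42 to 0.93), and the activin subunit Inhba was the lower member (1.97 to 0.68). Fst (follistatin), which binds activin, went from 1.28 to 2.45.

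Several large sets of genes that every cell uses stayed within 2-fold between the days, with few exceptions. None of 51 cytosolic ribosomal protein genes passed 2-fold in either direction (range -0.98 to 0.96). Of 75 oxidative phosphorylation subunits, 1 was higher and 1 lower, and the higher one, Ndufa4l2 (1.40), is also on the pericyte list. Of 35 proteasome subunits, the 2 lower ones were the interferon-induced Psmb8 and Psmb9. Glycolysis genes did so less: 9 of 22 were lower and 1 higher. The lactate and glucose carriers Slc16a3 and Slc2a3 went from 4.54 to 0.16 and from 4.29 to 0.14, and the muscle isoform of phosphofructokinase, Pfkm, from -2.46 to -0.84. Common reference genes differed as well, Gapdh by -2.61, Actb by -1.90 and B2m by -0.99, against -0.43 for Ppia and -0.36 for Hprt.

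The genes with the highest differences came from several tissues and were mostly genes low at day 1. After Cxcl13 and Gkn3 followed the neuropeptide Y receptor Npy1r (-0.56 to 2.35), the phosphatase Dusp26 (-0.87 to 2.02) and the trophoblast glycoprotein Tpbg (-2.23 to 0.54). Npy, the peptide of sympathetic nerves that Npy1r binds, went from -2.13 to 0.44, and Nts (neurotensin), another peptide, from -2.37 to 0.20. The homeobox gene Msx1 went from -1.92 to 0.68 and Mme, the peptidase of stromal and B-lineage cells also called CD10, from -1.62 to 0.93. Of the 15 highest, Cxcl13 alone was at least 2-fold above unirradiated on both days.

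A full crossing of the unirradiated level, from at least 2-fold on one side to at least 2-fold on the other, was rare. It went from above at day 1 to below at day 3 in 86 genes and from below to above in 11. The 11 include Adipoq, Gkn3, the fibroblast growth factor receptor Fgfr2 (-1.03 to 1.30), the oxysterol-making enzyme Ch25h (-1.33 to 1.26), the engulfment adaptor Gulp1 (-1.54 to 1.11), Pawr (-1.06 to 1.52) and the glutathione transferase Gsta4 (-1.10 to 1.23). Fgfr2 here, and Cebpe, Efnb2 and Fst above, were chosen after their values were seen.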

How the data were processed

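RNA of unirradiated (Cy5) and irradiated (Cy3) stromal cells was amplified as amino allyl RNA, per the labels' protocols, and hybridised on 2 arrays, 1 per time point. The authors deposited 1 log ratio per probe, read here as log2; the base, the numerator, background correction, normalisation and the filter behind empty entries are not given in the sources used here. Medians of the values as deposited were 0.0003 (day 1) and -0.0001 (day 3). No intensities were used, so the number of arrays limits the precision.

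Of 23473 probes, the platform annotation named 16631 with 1 symbol and left 6842 unnamed. Through a RefSeq table (GRCm38.p6), 12622 symbols were current, 3947 were older names of 1 gene, 59 had several possible genes and 3 had no match. Of 16390 genes, 229 had several probes, which were averaged. The medians over genes that were subtracted were -0.0119 at day 1 and 0.0162 at day 3. Python 3.11.15 with pandas 2.3.3 and numpy 2.4.6 was used. The members, the 65 gene lists and the motifs were chosen with earlier results of these data known.

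Named genes were the 15 highest and 15 lowest differences, the 3 highest and 3 lowest of each list, a short fixed set, and members of small families (histones, MCM genes, chemokines, collagens). Promoter windows are those of the RefSeq table. Alternatives were 4 other centrings, 2 other ways with probes, platform symbols and a 3-fold rule.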

Additional observations from a re-analysis of the deposited data

Results flagged for a closer look

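Some results stood out because the ratio against unirradiated had opposite signs on the 2 days, at least 2-fold each. None of these differences was tested, since each day has 1 array. Single genes were screened for this only among the highest and lowest differences picked out for naming. The genes given here are therefore not all that crossed. Above unirradiated at day 1 and below it at day 3 were the specific granule list, with a median difference of -7.75, and the genes Chil3 (-10.96), S100a8 (-9.61), Camp (-8.90), Wfdc21 (-8.44), Ncf1 (-8.43), Rac2 (-8.15), Ctsg (-7.98), Ngp (-7.93), Ltf (-7.91), Lilrb4a (-7.84) and S100a9 (-7.66). Wfdc21 is a secreted whey acidic protein family member of neutrophils, at 7.09 and -1.35, and Lilrb4a an inhibitory receptor of myeloid cells, at 6.64 and -1.21.

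Below unirradiated at day 1 and above it at day 3 were, within the same screened set, Pawr (2.58), Ch25h (2.59), Gulp1 (2.65) and Gkn3 (3.09). Among all genes with both ratios, 86 crossed from above to below by the same rule and 11 from below to above.

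Probes without a gene name lie outside the description by gene. Of 3121 such probes with both ratios, 579 (18.6%) were at least 2-fold lower at day 3 and 276 (8.84%) higher. Among the named genes 16.8% were lower and 12.1% higher, so the share of lower probes was near that of the genes.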

How the results depend on the processing

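All 8 alternatives were run on the counts, and 7 of them, leaving out the 3-fold rule, on the medians of 65 lists and 396 named genes. Values were lacking for 6 named genes with 1-probe genes only, and for 39 named genes and 2 list medians with platform symbols. Counts of higher and lower genes stayed within 1.5 times the main ones under the other centrings and probe rules, from 801 (density peak at 0) to 1262 (ribosomal protein genes at 0) higher and from 1580 to 2034 lower. A 3-fold rule gave 308 higher and 918 lower. With platform symbols the specific granule median was -6.98. With the density peak at 0, 4 list medians changed sign: Bcl2 family (-0.02), aldehyde dehydrogenases (-0.03), immediate early genes (-0.08) and skeletal muscle (-0.08). That setting moves each difference by -0.192, so smaller positive ones change sign. Of 2727 recomputed values of named genes, 2725 moved by less than the spread between probes. The others were Bcl2 (0.06) and H2ac4 (-2.73) with probes that had both ratios. That count was largely set beforehand and says little about how firm the values are. The largest move from a centring was -0.192, smaller than the spread of 0.73. Of the 396 named genes, 390 have 1 probe, which the probe rules cannot change. The causes were not tested. No paired analysis was possible because each time point has 1 array. Signal over background was not available to judge dim probes, whose ratios may be the least reliable.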

Other observations

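Of 32 glutathione and antioxidant genes, 9 were higher at day 3 by the same 2-fold rule, against 12.1% of all genes. Another 5 were lower, a share near the 16.8% of all genes. The median difference of the list was 0.80. The glutathione reductase gene Gsr went from 4.45 at day 1 to 0.49 at day 3, and the peroxiredoxins Prdx5 and Prdx6 from 3.03 to 0.05 and from 1.48 to -0.45. The transferases Gsta4 and Gstt1, which conjugate glutathione to reactive compounds, went from -1.10 to 1.23 and from -0.46 to 0.96. Aldh1a1, a retinal dehydrogenase that stood far below unirradiated at day 1, went from -3.51 to -1.98, and Aldh3b1 from 2.33 to -0.06.

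Of 12 circadian clock genes, 5 were higher and 1 was lower. The repressor Nr1d1 went from -1.71 to -0.05 and the output factor Dbp from -1.03 to 0.44, while Nfil3, which acts against Dbp, went from 2.06 to 0.49. The hour of sampling was not given. Among 23 immediate early genes, 3 were lower and 1 higher, both shares below those of all genes, with a median difference of 0.11. Fosl1, a partner of Jun, had the lowest difference, from 5.31 to 0.49, and the stress factor Atf3 the highest, from -0.79 to 0.30. Of 21 unfolded protein and amino acid response genes, 3 were lower and none higher, a share of lower genes below the 16.8% of all genes. Among the lower ones, Psat1 and Mthfd2, enzymes of serine and one-carbon synthesis that dividing cells use, went from -0.23 to -2.63 and from -0.73 to -2.52. Of 22 heat shock and chaperone genes, 2 were higher and 2 lower, both shares below those of all genes. The small heat shock genes Hspb1 and Cryab, abundant in muscle-type cells, went from -0.16 to 1.17 and from -1.01 to 0.56. The lower ones, Hspa4 and Hspa4l of the Hsp110 family, differed by -1.56 and -1.08. Of the 3 Schlafen genes, Slfn4, of activated myeloid cells, went from 9.04 to 0.57, while Slfn5 and Slfn8 differed by -1.92 and -0.61. Probes of this family may not tell its members apart. Skeletal muscle genes were spread from -3.12 (Tnnt1) to 1.06 (Tnnt3), with 2 lower and 1 higher of 9. Whether muscle tissue was carried over into the samples was not tested.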
